A study of Mus musculus with 7 samples.

Results

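mmu-miR-221 and mmu-miR-222 are a pair of microRNAs (miRNAs) encoded next to each other on the mouse X chromosome. They were chosen by name: every probe on the arrays whose target name equals one of these names, control spots left out, was taken, which gave 2 of the 696 miRNAs measured. The kidney RNA came from male C57BL/6 mice, 9 to 12 weeks old, after unilateral ureteral obstruction (UUO, a surgical tie of a ureter that leads to kidney fibrosis) or a sham operation in which the ureter was exposed and not tied. Kidneys were taken 28 days after surgery. Each of 7 samples was hybridized to a 1-colour Agilent miRNA array, 3 labelled treated (replicates 1, 3 and 4) and 4 labelled non-treated (replicates 1 to 4), and the title of the series speaks of sham kidneys. The sample titles begin with S for the arrays labelled treated and with C for the others. The labels do not settle which of these groups was obstructed, so every direction here is labelled treated minus labelled non-treated. The labels do not say that each array holds the RNA of a separate mouse, and p-values measure only the spread between these arrays.

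A miRNA is a short RNA that guides a silencing complex to messenger RNAs, and its seed, near the 5′ end, sets most of the pairing with a target. miR-221 and miR-222 are cut from hairpins of one primary transcript and share a seed. They are known for lowering the cell cycle inhibitor CDKN1B (p27) and the receptor KIT, and for their roles in proliferating cells and in the endothelium and smooth muscle of the vessel wall. A whole kidney holds tubule, vessel, mesenchymal and blood cells, so a lower signal can come from fewer cells that express a miRNA or from less of it per cell, and these cannot be told apart here. The question for the pair is whether both members changed alike between the labels.

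The mature sequences are shown because the pair is defined by what they share. They come from RefSeq (GRCm38.p6) and are written 5′ to 3′ with the seed, bases 2 to 8, in capitals. The array names carry no arm, and the link to the 3p arm rests on naming, since probe sequences were not used here.
mmu-miR-221-3p: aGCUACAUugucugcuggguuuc
mmu-miR-222-3p: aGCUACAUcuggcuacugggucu
Both are 23 bases long and identical over the first 8. Of the 23 positions, 11 are identical and 12 differ. With positions counted from 1 at the 5′ end and the base of miR-221 first, the differences are U9C, G10U, U11G, C12G, U13C, G14U, C15A, U16C, G17U, U20G, U22C and C23U. The G and C content is 47.8% for miR-221 and 52.2% for miR-222. Of the mature miRNAs in the RefSeq table, 3 carry this seed, the other being miR-1928, which was detected on 0 of the 7 arrays.

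The hairpins are shown to place the mature strand, in capitals, within each precursor. Mir221 lies at chrX:19146294-19146388 on the minus strand, with its mature strand at chrX:19146307-19146329. Mir222 lies at chrX:19146893-19146971 on the minus strand, with its mature strand at chrX:19146901-19146923.
Mir221 hairpin: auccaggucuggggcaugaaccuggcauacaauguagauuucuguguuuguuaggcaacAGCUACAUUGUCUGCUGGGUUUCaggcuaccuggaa
Mir222 hairpin: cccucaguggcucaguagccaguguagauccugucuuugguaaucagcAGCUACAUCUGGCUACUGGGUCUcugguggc
The hairpins are separated by 504 bases, and 0 other RefSeq genes overlap the span they cover.

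The arrays differed in overall brightness by label. Detected miRNAs numbered 193 to 214 on arrays labelled treated, against 232 to 282 on the rest. Averaged over the miRNAs that all arrays detected, the unscaled log2 signal was 7.24 ± 0.40 (SD, n = 4) with the label non-treated and 6.09 ± 0.32 (SD, n = 3) with the label treated, while the spike-in controls were at 10.53 ± 0.23 (SD, n = 4) and 10.32 ± 0.28 (SD, n = 3). Non-treated replicate 3 was dimmer than the other arrays of its label, at 6.65 against 7.40 to 7.52. Scaling each array by the mean of the miRNAs detected on all arrays removes this difference in brightness, and the direction of both members depends on that step.

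Each member was read by 2 probes, each printed in 10 spots per array. Before any scaling, the summed signal of mmu-miR-221, in linear intensity units after background subtraction, was 105, 111, 70.0 and 106 on the arrays of non-treated replicates 1 to 4. It was 71.7, 101 and 60.6 on the arrays of treated replicates 1, 3 and 4. The unscaled groups overlapped, since non-treated replicate 3 fell among the treated arrays. The summed signal of mmu-miR-222 was 17.1, 18.2, 12.1 and 15.8 for non-treated replicates 1 to 4, and 8.88, 11.2 and 6.98 for treated replicates 1, 3 and 4. For miR-222 every array labelled treated lay below every array labelled non-treated before scaling. Levels of the members cannot be set against each other, because different probes bind with different strength.

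**Figure D1:**
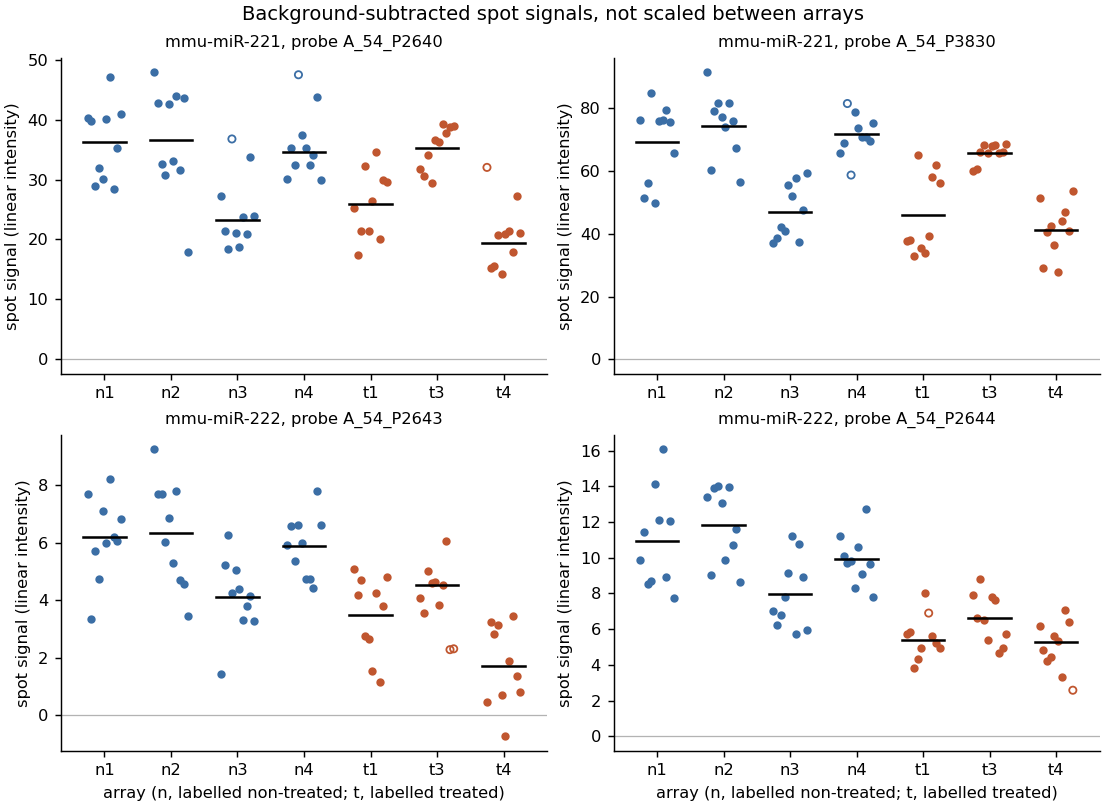
Background-subtracted signal (linear intensity, y axis) of each of the 10 spots of the 4 probes of the pair on each array (x axis; n, labelled non-treated; t, labelled treated), before scaling. Filled points entered the mean (black line), open points are spots flagged as outliers; the probes of miR-221 stay well above 0 on all 7 arrays, whereas both probes of miR-222 are dim and probe A_54_P2643 falls to a mean of 1.72 on the array of treated replicate 4.

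After scaling, mmu-miR-221 had log2 signals of 6.07, 6.02, 6.23 and 6.07 on the arrays of non-treated replicates 1 to 4. On those of treated replicates 1, 3 and 4 the scaled log2 signals were 6.87, 6.98 and 6.88. All 3 arrays labelled treated lay above all 4 labelled non-treated. The group means were 6.10 ± 0.09 (SD, n = 4) and 6.91 ± 0.06 (SD, n = 3), a log2 difference of 0.81 (SE 0.06, 95% confidence interval 0.66 to 0.96), or 1.75-fold. It passed the threshold of an adjusted p below 0.01 (limma, Benjamini-Hochberg adjusted p = 3.84e-05), but turned to -0.35 with no scaling and to -0.14 with scaling by the spike-in controls, neither past the threshold, and was 0.30 and no longer past it with scaling by the mean of all miRNAs (limma, adjusted p = 0.0744). The study lists miR-221 as lower in obstructed kidneys, and miR-222 is not in its list of changed miRNAs. If labelled treated is read as obstructed, the scaled direction of miR-221 is the opposite of the study's. If labelled non-treated is read as obstructed, it is the same as the study's. Every cell type marker below that the study also lists had this relation to its sign, such as miR-192 at 3.24 and miR-223 at -2.33. For miR-221 the exact 2-sided permutation test over arrays gave p = 0.0571, the smallest that 3 against 4 arrays allow.

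mmu-miR-222 had scaled log2 signals of 3.45, 3.41, 3.69 and 3.33 on the arrays of non-treated replicates 1 to 4. On the arrays of treated replicates 1, 3 and 4 they were 3.85, 3.80 and 3.76. The groups again did not overlap, with non-treated replicate 3 closest to the treated arrays, but they overlapped in 7 of 28 alternatives, the deposited table among them. The means were 3.47 ± 0.16 (SD, n = 4) and 3.81 ± 0.05 (SD, n = 3), a log2 difference of 0.34 (SE 0.09, 95% confidence interval 0.12 to 0.55), or 1.26-fold. This did not pass the threshold (limma, adjusted p = 0.0150), and the exact permutation test gave p = 0.0571. The difference was 0.09 with scaling by the 75th percentile of the miRNAs detected on every array and 0.02 with normexp on median signals. In the deposited table, where treated replicate 4 has error estimates in place of signals, it was 0.03. Without that array the deposited table gave 0.71, past the threshold (limma, adjusted p = 0.00536). With the scaling used here but without non-treated replicate 3, the difference was 0.39 and passed the threshold (limma, adjusted p = 0.00108). With no scaling, with scaling by the spike-in controls and with scaling by the mean of all miRNAs it was negative, at -0.82, -0.61 and -0.17, and with the spike-in controls it passed the threshold in that direction (limma, adjusted p = 0.000504).

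Across all miRNAs tested, 23.7% rose past the threshold and 54.7% passed it in either direction, with 56 higher and 73 lower. That split was 7 and 162 with no scaling, 19 and 166 with spike-in scaling, 36 and 121 with scaling by the mean of all miRNAs and 73 and 46 with the 75th percentile over all miRNAs. It was 56 and 56 when only the 186 miRNAs detected on every array were tested, so the surplus of lower calls depends on the filter too. The groups did not overlap for 66.1% of the miRNAs tested, so the lack of overlap of both members is near what most miRNAs showed. The median log2 difference of all 236 miRNAs was -0.06. By the size of the signed difference, miR-221 was number 42 from the top and miR-222 number 63.

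**Figure D2:**
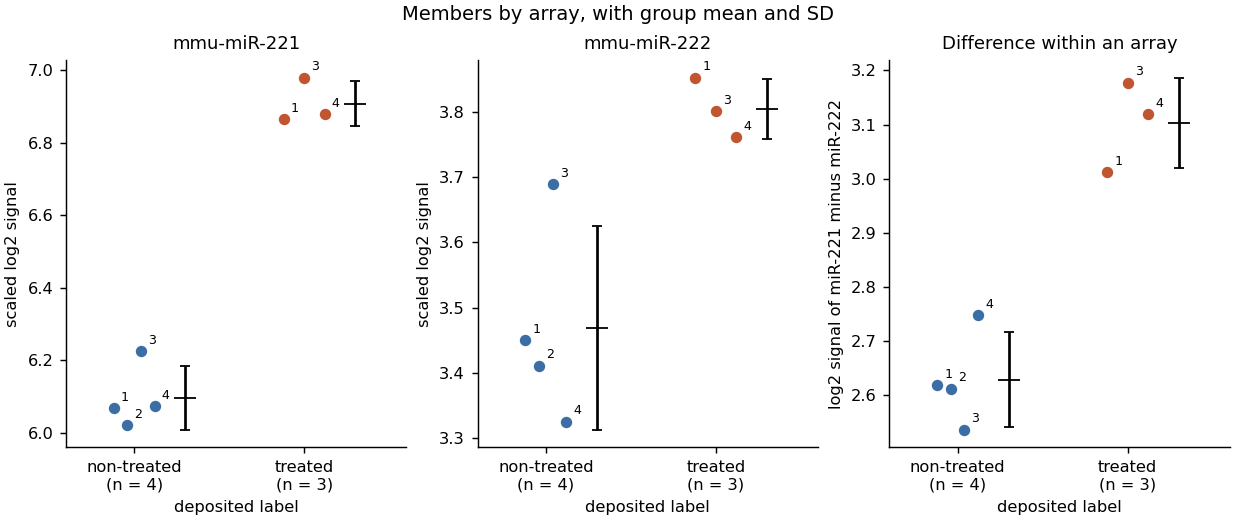
Scaled log2 signal of mmu-miR-221 (left) and mmu-miR-222 (middle) and the log2 signal of miR-221 minus that of miR-222 on the same array (right), by deposited label. Points are arrays with their replicate number, bars are mean and SD, and the axes do not start at 0; the groups are apart in all 3 panels, but the direction in the left and middle panels turns without scaling or with spike-in scaling, in the middle panel also with scaling by the mean of all miRNAs, while the right panel does not depend on a scaling factor.

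The members were then compared within each array, where a common scaling factor cancels. The log2 signal of miR-221 minus that of miR-222 was 2.62, 2.61, 2.54 and 2.75 on the arrays of non-treated replicates 1 to 4. It was 3.01, 3.18 and 3.12 on those of treated replicates 1, 3 and 4. All 3 arrays labelled treated had a larger difference than all 4 labelled non-treated. The means were 2.63 ± 0.09 (SD, n = 4) and 3.103 ± 0.084 (SD, n = 3), so that the signal of miR-221 relative to miR-222 was higher by 0.47 on the log2 scale (SE 0.10, 95% confidence interval 0.25 to 0.70), or 1.39-fold, on the arrays labelled treated. The difference was past the threshold when all log2 signals were taken relative to miR-222 on the same array (limma, adjusted p = 0.00181), and the exact permutation test gave p = 0.0571. Of the 235 other miRNAs in that fit, 18.3% were higher past the threshold, with 43 higher and 105 lower. In either direction 148 passed it, so most miRNAs differed from miR-222 between the labels. The share of them without overlap of the groups is not given here.

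The pair therefore differed by unequal amounts between the labels, whichever direction each member took on its own. With no scaling, miR-221 was lower by less than miR-222 on the arrays labelled treated, at -0.35 against -0.82. With the scaling used here, miR-221 was higher by more than miR-222, at 0.81 against 0.34. A common scaling factor, filter, floor or test leaves the relative change as it is, which held for 11 alternatives. In the 16 others that use signals of the arrays, it was positive, between 0.049 and 0.61, and the groups did not overlap in 15. The exception was the deposited table of single spots without the array of treated replicate 4, at 0.049 (limma, adjusted p = 0.845). The relative change also failed the threshold without treated replicate 3 and without treated replicate 4, at 0.44 and 0.47 (limma, adjusted p = 0.0124 and 0.0113). It failed it at 0.61 with Agilent's summed signal and at 0.47 when the fit blocked on replicate number (limma, adjusted p = 0.0114 and 0.0122). With the brighter probe of each miRNA alone it was 0.44, and with Bonferroni adjustment it was 0.47 (limma, adjusted p = 0.0227 and 0.218), neither past the threshold.

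**Figure D3:**
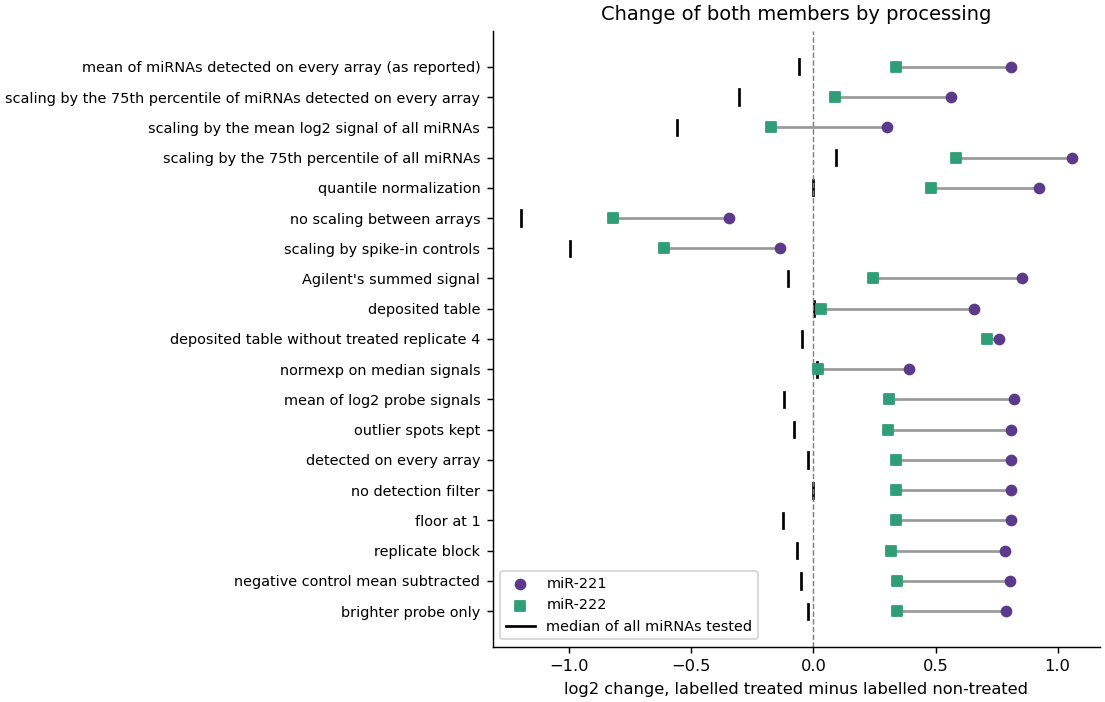
Log2 difference, labelled treated minus labelled non-treated (x axis), of miR-221 (circles) and miR-222 (squares) under the ways of processing on the y axis. The ways drawn change these differences or the median of all miRNAs tested (black tick). The grey line between the symbols is the relative change of the pair. Both symbols lie left of 0 with no scaling and with spike-in scaling, and miR-222 alone with scaling by the mean of all miRNAs. In all 19 settings drawn miR-221 lies right of miR-222, but a common scaling factor, filter or floor leaves their distance at 0.47. Such settings are no separate tests of this order, and the full deposited table lacks a signal for treated replicate 4.

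The probes of each member were set apart to see whether they moved together. For miR-221, probe A_54_P2640 had a scaled log2 difference of 0.85 (SE 0.08) and probe A_54_P3830 one of 0.79 (SE 0.06). Both passed the threshold (limma across probes, adjusted p = 0.000227 and 0.000140), and their groups did not overlap. All 70 of 70 spots of each of these probes were well above background over the 7 arrays. Among the 528 probes of all miRNAs tested, 21% were higher past the threshold, with 111 higher and 147 lower. In either direction 258 passed it, and the share of probes without overlap is not given here. As for the sum, the higher signal of the miR-221 probes needs the scaling. With no scaling, with spike-in scaling and with scaling by the mean of all miRNAs neither probe of miR-221 was higher past the threshold.

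For miR-222, probe A_54_P2643 had a scaled log2 difference of 0.27 (SE 0.21, 95% confidence interval -0.24 to 0.78) and probe A_54_P2644 one of 0.34 (SE 0.12, interval 0.04 to 0.65). Neither passed the threshold (limma across probes, adjusted p = 0.311 and 0.0544), and the groups overlapped for both. The signal of A_54_P2643 was near background on the arrays labelled treated, with 3 of 30 spots well above it against 24 of 40 on the arrays labelled non-treated. On the array of treated replicate 4, 0 of its 10 spots were well above background, and their mean was 1.72. The probes moved apart on that array, where the scaled log2 signal of A_54_P2643, 1.74, was the lowest of the 7 arrays and that of A_54_P2644, 3.35, the highest. The reported signal of miR-222 sums both probes, and the part of this in its small spread was not tested. A_54_P2644 had 19 of 30 spots well above background on the arrays labelled treated and 40 of 40 on those labelled non-treated. The part of this low signal in the relative change was not tested. In 2 alternatives chosen after seeing the data, the relative change was 0.46 with the mean of the negative control spots subtracted from each array and 0.44 with the brighter probe alone, which leaves out A_54_P2643. The first passed the threshold and the other did not (limma, adjusted p = 0.00658 and 0.0227).

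Each probe of miR-221 was also set against A_54_P2644, the brighter probe of miR-222, within an array. The relative change was 0.51 for A_54_P2640 and 0.44 for A_54_P3830. For both the groups did not overlap, with an exact permutation p of 0.0571. The share of other probes without overlap in this measure is not given here. They share the probe of miR-222 and the arrays and are not independent of each other. A_54_P2643 was not used in this way, because it was near background on the arrays labelled treated.

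The unequal change was set beside other miRNAs that lie close together and share a seed. Of 13 listed pairs of this kind, 10 were matched in the RefSeq table with a shared seed, and 9 of these had both members tested. The size of the difference between the members' changes ranged from 0.07 for miR-200b and miR-429, which are known for keeping the epithelial state, to 3.47 for miR-132 and miR-212-3p. miR-221 and miR-222 ranked 3 of 9 by size, at 0.47, beside a median of 0.36 for the other 8 pairs. In 7 of the 9 pairs, this one included, both members had the same sign with the scaling used here. In 7 of the 9 the within-array differences of the groups did not overlap. The share of other pairs of miRNAs without overlap in this measure is not given here, and the groups did not overlap for 66.1% of single miRNAs. The count is therefore no trait of pairs that lie close together.

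Some of these pairs give a mixed signal, because miR-29b, miR-16, miR-30c, miR-181a and miR-181b each have 2 loci while an array reads their sum. Both members of the pair described here have 1 locus. Its neighbours in rank were miR-29a and miR-29b, at 0.90, and miR-30c and miR-30e, at 0.46. For miR-132 and miR-212-3p the members lay on either side of 0, at -2.38 and 1.09. miR-17 and miR-20a were not both tested, and miR-30b with miR-30d, miR-130b with miR-301b and miR-34b-5p with miR-34c were not matched in full.

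**Figure D4:**
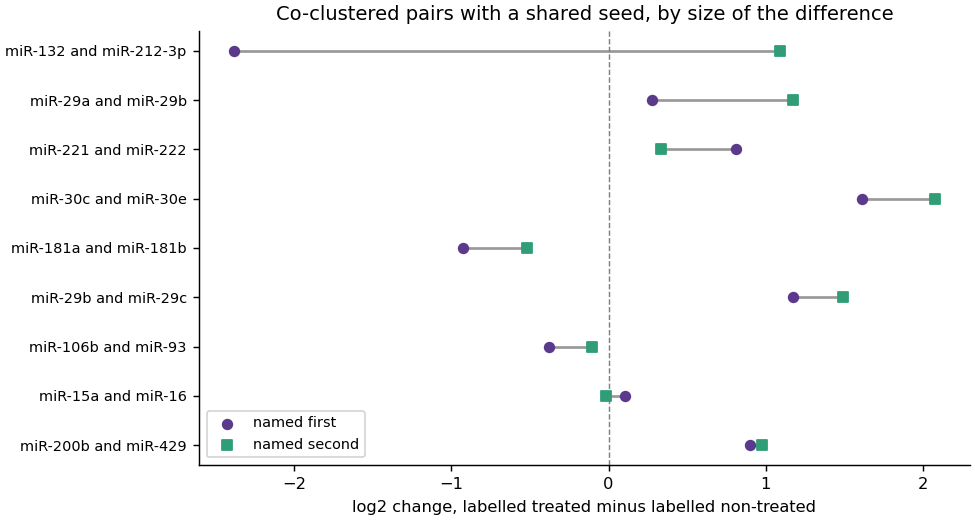
Scaled log2 difference, labelled treated minus labelled non-treated (x axis), of both members of 9 co-clustered pairs with a shared seed (y axis), ordered by the size of the difference between them (grey line). miR-221 and miR-222 rank 3 of 9, at 0.81 and 0.34; without scaling or with spike-in scaling both lie left of 0, and with scaling by the mean of all miRNAs miR-222 does, at the same distance from each other.

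The pattern over arrays was compared with that of the other miRNAs detected on all arrays. Over the 7 arrays, the scaled log2 signals of miR-221 and miR-222 had a Pearson's r of 0.897, given as a description because the arrays share the scaling and fall into 2 groups. The miRNAs most like miR-221 were miR-429, at r of 0.997, miR-582-5p, at 0.996, and miR-192, at 0.996. Those most like miR-222 were miR-455, at 0.977, miR-30d, at 0.969, and miR-30b*, at 0.966. Of 185 candidates, miR-222 was number 51 in likeness to miR-221, and miR-221 was number 12 in likeness to miR-222.

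Markers of the cells of a kidney also differed by label, and they are given with the scaling used here. Of the 4 vessel wall markers, the cells for which the pair is best known, 0 rose and 2 fell, with a median log2 difference of -0.41. The endothelial miR-126-3p was at -0.0017 (SE 0.05) and miR-126-5p at 0.08 (SE 0.09), neither past the threshold, and both changed sign between the 7 scalings. miR-126-3p was lower past the threshold in 4 of the 7, and miR-126-5p with no scaling and with spike-in scaling. The smooth muscle miRNAs miR-143 and miR-145 fell by 1.05 and 0.82, with the same call in all 7 scalings (limma, adjusted p = 9.02e-05 and 6.24e-05). The log2 of the summed level of this list was 10.94 to 11.03 with the label treated, against 11.04 to 11.17. Neither member of the pair had the sign of the smooth muscle miRNAs with this scaling.

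Other lists differed by more than the pair did. Of the tubule list, 3 of 4 were tested, of which miR-192 and miR-194 rose by 3.24 and 2.92 and miR-204 fell by 0.56, while miR-215 was detected on none of the 7 arrays. The log2 of the summed level of the tubule list was 11.11 to 11.21 with the label treated, against 7.97 to 8.72. All 3 mesenchymal miRNAs fell, with a median of -2.51 and summed levels of 8.62 to 8.68 against 11.05 to 11.30. All 5 leukocyte miRNAs fell, with a median of -1.95 and summed levels of 8.33 to 8.39 against 10.40 to 10.75. Of the red cell miRNAs, 2 of 3 were found by name and both rose, with a median of 2.13 and summed levels of 12.17 to 12.32 against 10.08 to 11.19. Under the 7 scalings the members of these lists that rose or fell kept their sign, but miR-204 and miR-150 lost their call with the 75th percentile over all miRNAs and with quantile normalization, and miR-451 lost it with no scaling and with spike-in scaling. The part of these cell types in the change of either member, or in the relative change, was not tested.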

How the data were processed

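For 7 miRNA arrays of 1 colour, the authors deposited spot tables that Agilent Feature Extraction 10.7.3.1 had written. Their processed signal is a linear intensity from which the software had subtracted the background. A second table, also from the authors, lists the intensity of the first spot of each probe for 6 arrays and, for treated replicate 4, the error estimate of that intensity. Arrays give no depth in reads, and their number limits the precision.

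Intensities were averaged over spots without outlier flags per probe, summed per miRNA, scaled by the mean log2 signal of the 186 miRNAs that all arrays detected, raised to a floor of 6.71 and taken as log2. A miRNA was tested if detected on every array of at least 1 label, which left 236. limma 3.58.1 in R 4.3.3 compared the labels with no covariates, with Benjamini-Hochberg adjusted p below 0.01 over all miRNAs, or over 528 probes. The relative fit took all log2 signals relative to miR-222. Permutation tests were exact and 2-sided over 35 splits. 0 spots of the pair were saturated. No block for slide or scan was possible, since all arrays shared both. Arrays of a label correlated at 0.990 or more, those of different labels at 0.935 or less, and 0 were identical.

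The steps were tested on simulated data with the same log2 spread at every level and with the probes of a miRNA alike. Such data do not cover dim or unlike probes, such as those of miR-222. Named are the pair, the 3 miRNAs most like each member, the marker lists and the co-clustered pairs, where array names matched. The members and lists were chosen with earlier results of these data known. Alternatives covered scaling, background, signal, probes, outliers, filter, floor, test, threshold, the replicate number and each array left out. Human samples and PCR were not analysed here.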

Additional observations from a re-analysis of the deposited data

Results flagged for a closer look

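Before scaling, non-treated replicate 3 was far below its 3 fellow arrays in 2 measures of signal. Its unscaled log2 signal of miR-221 was 6.13, against 6.72 to 6.79 on the others. Averaged over the miRNAs that all arrays detected, its log2 signal was 6.65, against 7.40 to 7.52. Of 12 groups of values looked at in this way, all from arrays labelled non-treated, 2 held such an array. Chance would mark about 1 in 20 independent groups, but these share the same arrays, so that rate does not apply here. The arrays labelled treated are not given in this way. Without this array the relative change of miR-221 against miR-222 was 0.44 (limma, adjusted p = 0.000999581).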

How the results depend on the processing

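The change of miR-221 kept its direction and side of the threshold in 25 of 28 alternatives, that of miR-222 in 21 of 28, and the relative change in 16 of 23, some of which cannot move its value. miR-221 was at 0.30 with scaling by the mean of all miRNAs, at -0.35 with no scaling and at -0.14 with spike-in scaling, none past the threshold. miR-222 was at -0.17 with scaling by the mean of all miRNAs, at -0.82 with no scaling and, past the threshold, at -0.61 with spike-in scaling. Among the 21 it was at 0.09 with the 75th percentile of the miRNAs detected on every array and at 0.02 with normexp. Also among them, it was at 0.03 in the deposited table, which holds error estimates for treated replicate 4. It was past the threshold in the reported direction at 0.58 when scaled to the 75th percentile over all miRNAs, at 0.48 with quantile normalization and at 0.71 in the deposited table without treated replicate 4. The relative change was no longer past the threshold at 0.61 with Agilent's summed signal, at 0.049 in the deposited table without treated replicate 4, at 0.47 with Bonferroni adjustment, and at 0.44 with the brighter probe alone, an alternative chosen after seeing the data, as was subtraction of the negative controls. Leaving out 1 array gave 0.78 to 0.85 for miR-221, 0.29 to 0.39 for miR-222 and 0.44 to 0.52 for the relative change. The cause of these moves was not tested.

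The 129 miRNAs past the threshold became 59 with normexp on median signals and 65 with Bonferroni adjustment, and 112 to 140 with 1 array left out. With the deposited table they became 56, and 93 when its error estimates for treated replicate 4 were left out. Of the pair's probes, 2 passed, 0 with the mean of all miRNAs, and 1, in the lower direction, both with no scaling and with spike-in scaling, and 2 to 3 with 1 array left out. The split of 56 higher and 73 lower became 36 and 121 with the mean of all miRNAs, 73 and 46 with that 75th percentile, 7 and 162 with no scaling and 19 and 166 with spike-in scaling. These scalings moved the median of all miRNAs from -0.06 to -0.56, 0.09, -1.20 and -0.997.

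The labels do not say that a replicate number pairs arrays, so the numbers were not taken as pairs. Deviations of same-numbered arrays from their group means correlated at -0.055, -0.034 and 0.181 for numbers 1, 3 and 4. With so few arrays these values are a weak check of pairing. With the replicate number as a block, miR-221 was at 0.79, miR-222 at 0.32 and the relative change at 0.47 (limma, adjusted p = 0.0122, no longer past the threshold), with 95 miRNAs called. The low signal of miR-222 limits how precisely its change and the relative change are known.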

Other observations

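In the deposited table of processed values, whose scale is linear and uncentred, the column medians were 0.445, 0.532, 0.470 and 0.346 for non-treated replicates 1 to 4 and 0.322, 0.276 and 1.001 for treated replicates 1, 3 and 4. The column of treated replicate 4 holds error estimates and gives 8.59 for miR-221 and 2.18 for miR-222, summed over probes. The other columns give 63.0 to 139 for miR-221 and 8.48 to 22.7 for miR-222.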
